A study of Mus musculus with 4 samples.

Results

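The EGF receptor family, its ligands and one feedback inhibitor were examined as 10 of the 54532 genes in the deposited count table. Their rows were found by gene symbol, but the genes were chosen with earlier results of these data known. They are the receptors Egfr, Erbb2 and Erbb3, the ligands Hbegf, Areg, Ereg, Tgfa, Btc and Nrg1, and the inhibitor Errfi1. The cells were MPC5, a conditionally immortalized mouse podocyte line, which was grown with interferon-γ and then differentiated without it at a higher temperature. The IL-12 treatment group (2 libraries) was given IL-12 at 400 ng/ml and collected after 6 h, and the control group (2 libraries) received saline. A time is given for the IL-12 libraries only, and no source used here says when the control libraries were collected. The line stands for podocytes in culture without the other cells of the glomerulus, and no source says if replicate libraries were grown as separate cultures, so the p-values measure the spread between these libraries, which may be technical.

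Signalling in this family starts when a ligand, usually cut from a membrane-bound precursor by an ADAM metalloprotease, binds EGFR, ERBB3 or ERBB4. The receptors then pair and phosphorylate each other, and they recruit adaptors that feed the RAS-ERK and PI3K-Akt pathways. ERBB2 binds no known ligand and acts as the partner of the others, ERBB3 has little kinase activity of its own, and ERRFI1 (also called MIG6) binds the active kinase domain and shuts it down. In the kidney, HB-EGF made by podocytes and its receptor EGFR are known for their part in crescentic glomerulonephritis.

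The total counts per library were 18355379 to 20098012, and 3 counts, taken as the floor of detection, corresponded to 0.149 to 0.163 CPM (counts scaled to library size, here to the total count), which covers counting error only. All other CPM values use the total corrected by TMM factors. Among 10 podocyte markers, Synpo, Actn4, Cd2ap, Podxl and Magi2 passed the filter on low counts, while Nphs1 and Tcf21, which mark the mature podocyte, had 0 or 1 count in a library, and Wt1 had 4 to 16. Synpo, which encodes the actin-associated protein synaptopodin, fell by 0.66 on the log2 scale, while Podxl and Actn4 rose by 0.33 and 0.17. The summed level of all 10 podocyte markers was 1982 to 1990 CPM in the control group and 1956 to 1979 CPM in the IL-12 treatment group. Most of it was Actn4, at a mean of 1155 CPM in the control group and 1299 CPM with IL-12. Synpo went from 480 to 304 CPM, so the similar sums hold opposite changes. The 5 endothelial markers summed to between 0.159 and 0.556 CPM in any library, with Emcn at 0, and the 5 immune markers summed to 5.54 to 6.25 CPM and 5.16 to 7.46 CPM, with Cd3e at 0. The 5 mesangial or fibroblast markers summed to 54.4 to 56.5 CPM in the control group and 60.5 to 68.9 CPM in the IL-12 treatment group, nearly all of it Pdgfrb, with Pdgfra, Dcn and Itga8 at 0 to 3 counts. The 6 tubular markers summed to 633 to 659 CPM and 517 to 558 CPM, nearly all of it Lrp2, with Slc34a1 and Umod at 0. The mesangial and tubular sums moved with the treatment, and their part in the results was not tested. The culture was of 1 line, so these sums are read as levels of Pdgfrb and Lrp2 and not as shares of cell types. In bulk RNA, fewer cells that express a gene and less RNA of it per cell cannot be told apart.

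After IL-12, 2 ligand genes, 1 receptor gene and the inhibitor gene rose. Hbegf was 1.50-fold higher, Btc 2.40-fold, Egfr 1.20-fold and Errfi1 1.20-fold. Erbb2 fell to 0.90 of its control level, a call that depended on the settings. Erbb3, Tgfa and Nrg1 did not pass the test, and Areg and Ereg were too scarce to be tested. In the quasi-likelihood test of edgeR, with p-values adjusted over the 14095 genes that passed the filter, 4 of the 8 tested genes were higher at an adjusted p below 0.05, where 16.1% of all genes tested were, and 1 was lower, where 14.4% were. These shares are over genes of all levels, and genes with many counts pass at smaller changes. Egfr passed at a log2 fold change of 0.26, and Erbb3 did not at -0.67. In level, Egfr, Hbegf and Errfi1 lay above 79.7%, 91.6% and 93.7% of tested genes, and Btc above 10.3%. No share among genes of like level was computed. With total counts in place of TMM scaling, 40.5% of all genes called were higher, against 52.8% with it, and the 4 genes were called with either. Btc alone was also over 2-fold, which 0.858% of all genes tested were in the same direction. The IL-12 libraries lay wholly above the control libraries for 4 of the 8 genes (31.7% of all genes tested) and wholly below for 2 of them (31.2%). The median log2 fold change of the 8 genes was 0.14, and that of all genes tested was -0.0022. With 2 libraries in each group, the smallest two-sided p of an exact permutation test is 0.333, and the p-values given here use an estimate of spread that edgeR pools over genes.

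**Figure D1:**
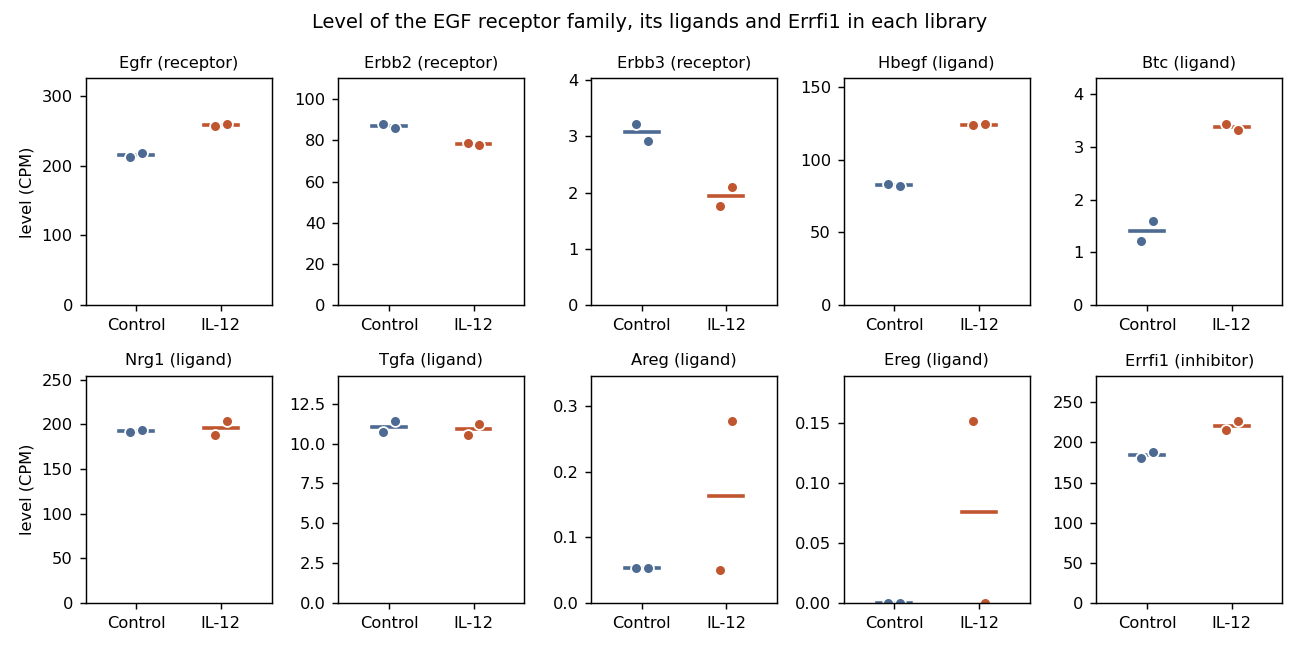
Level of each of the 10 genes in CPM (linear axes from 0, different for each gene) in the 2 control and the 2 IL-12 libraries. Each point is a library, replicate 1 at the left, and the bar is the group mean. Hbegf, Btc, Egfr and Errfi1 lay higher in both IL-12 libraries, Erbb2 and Erbb3 lay lower, and Areg and Ereg stayed under 0.28 CPM.

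Levels of different genes were compared per length, as FPKM (fragments scaled to gene length and library size). The deposited FPKM values use 1 length per gene, whichever transcripts were present. This length was 2373 bases for Hbegf, 10351 for Nrg1 and 11326 for Egfr. The order, ratios and shares given per length depend on it. Errfi1 had the highest level of the 10 genes in the control group, with 51.4 ± 1.69 FPKM (SD, n = 2), above 93.7% of the genes tested by its mean over the 4 libraries. Hbegf followed with 34.8 ± 0.227 FPKM. Egfr (19.0 ± 0.407 FPKM) and Nrg1 (18.6 ± 0.188 FPKM) came next, and their control values overlapped. Erbb2 was at 16.7 ± 0.251 FPKM, and Tgfa followed at 1.70 ± 0.0758 FPKM. Erbb3 (0.510 ± 0.0353 FPKM), Btc (0.310 ± 0.0591 FPKM), Areg (0.0435 ± 0.000169 FPKM) and Ereg (listed at 0 in both control libraries) were the lowest. The Areg value rests on 1 count in each control library, so its small SD does not measure counting error. With IL-12 the order changed in that Btc, at 0.748 ± 0.0189 FPKM, stood above Erbb3, at 0.322 ± 0.0390 FPKM. Egfr, at 22.8 ± 0.240 FPKM, no longer overlapped Nrg1, at 18.9 ± 1.02 FPKM.

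Promoter sequence was taken from RefSeq (build GRCm38.p6), whose table held 6 of the 10 symbols, Egfr, Erbb2, Areg, Tgfa, Btc and Errfi1. Shown are the 250 bases before the start site of Egfr, Errfi1 and Btc, which rose, and of Areg, the scarce ligand whose promoter shared motifs with that of Errfi1. Letters are 5′ to 3′ on the strand of the gene, and capitals mark matches on either strand to the AP-1 motif (TGANTCA), the cyclic AMP response element or CRE (TGACGTCA), its core (TGACG, which every full site contains), the TEAD motif (GGAATG) and the TATA box (TATAAA). Egfr lies at chr11:16751953-16752202 on the plus strand, and the downstream of the 2 Errfi1 start sites has chr4:150854820-150855069 on the plus strand. Btc has chr5:91402995-91403244 on the minus strand, and Areg has chr5:91139349-91139598 on the plus strand.
Egfr: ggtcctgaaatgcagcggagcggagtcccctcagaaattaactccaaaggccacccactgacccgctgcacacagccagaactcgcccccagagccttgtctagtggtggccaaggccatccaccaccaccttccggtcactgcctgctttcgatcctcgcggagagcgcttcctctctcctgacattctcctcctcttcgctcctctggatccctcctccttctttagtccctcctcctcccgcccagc
Errfi1: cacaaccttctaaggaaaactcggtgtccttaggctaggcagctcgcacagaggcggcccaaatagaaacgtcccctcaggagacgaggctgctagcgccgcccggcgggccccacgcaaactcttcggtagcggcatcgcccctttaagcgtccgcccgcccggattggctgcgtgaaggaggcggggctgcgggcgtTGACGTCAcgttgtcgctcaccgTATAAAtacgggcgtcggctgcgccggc
Btc: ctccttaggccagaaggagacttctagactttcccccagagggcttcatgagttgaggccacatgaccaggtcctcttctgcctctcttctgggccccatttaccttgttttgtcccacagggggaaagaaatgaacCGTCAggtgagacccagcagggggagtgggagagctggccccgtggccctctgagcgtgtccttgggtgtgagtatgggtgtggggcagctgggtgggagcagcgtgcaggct
Areg: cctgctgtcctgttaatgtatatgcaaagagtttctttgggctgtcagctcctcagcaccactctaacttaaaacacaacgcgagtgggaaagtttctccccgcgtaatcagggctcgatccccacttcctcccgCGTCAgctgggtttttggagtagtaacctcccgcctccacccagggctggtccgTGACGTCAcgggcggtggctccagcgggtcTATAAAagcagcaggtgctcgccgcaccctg

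Errfi1 and Areg each held a full CRE, beginning 51 and 61 bases before the start site, and a TATA box, beginning 28 and 31 bases before it. Of the 32851 promoter windows of this length, 1.55% held a CRE, 12.4% a TATA box and 0.119% both. Areg was picked for display by these matches, so the shares are background and not a test. These genes stood at the top and near the bottom of the order of levels. Btc held only a CRE core, as 17.8% of the windows did, and Egfr held none of the motifs. The AP-1 motif, which 6.75% of the windows held, was in none of the windows of these 6 genes. The TEAD motif, at 12.6% of the windows, was in that of Erbb2 and in that of the upstream Errfi1 start site. The Erbb2 window also held a CRE core. The matches describe the letters of these windows only.

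Egfr encodes the receptor for EGF, HB-EGF, TGF-α, amphiregulin, betacellulin and epiregulin. It lies on chromosome 11 of GRCm38 from 16752203 to 16918158 (ENSMUSG00000020122). Control replicates 1 and 2 held 4024 and 4125 counts of it and IL-12 replicates 1 and 2 held 5065 and 4701, which are 212, 219, 256 and 260 CPM after scaling. Both IL-12 libraries lay above both control libraries. On the log2 scale Egfr rose by 0.26 (standard error 0.04, 95% interval 0.18 to 0.33), at adjusted p = 1.52e-05 (edgeR). Of all genes tested, 31.6% changed by more in either direction.

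Erbb2, whose product has no known ligand of its own, lies on chromosome 11 from 98412470 to 98437716 (ENSMUSG00000062312). It had 1668 and 1624 counts without IL-12 and 1556 and 1407 with it, or 88.0, 86.0, 78.7 and 77.8 CPM. The groups did not overlap, but the distance between them was small. On the log2 scale the difference for Erbb2 was -0.15 (standard error 0.05, 95% interval -0.25 to -0.05, adjusted p = 0.0195, edgeR). This call was lost in 7 of 14 other settings, with an adjusted p of up to 0.136, among them the settings without control replicate 1 (0.136), without IL-12 replicate 1 (0.0855) and without IL-12 replicate 2 (0.0996). Each of these leaves 1 library in a group, which is then assumed to vary like the libraries of the other group.

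Erbb3, the receptor with little kinase activity that binds neuregulins, lies on chromosome 10 from 128567523 to 128589652 (ENSMUSG00000018166). It was scarce, with 61 and 55 counts without IL-12 and 35 and 38 with it, or 3.22, 2.91, 1.77 and 2.10 CPM. Both IL-12 values were below both control values. The log2 fold change of -0.67 (standard error 0.25, 95% interval -1.19 to -0.14) came with adjusted p = 0.0516 (edgeR) and so did not pass. It passed in 3 of 14 other settings, which were upper-quartile scaling (0.0460), total counts only (0.0386) and the stricter filter that asks each library for 10 counts (0.0383).

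The 3 receptors were also summed per length. Their summed level was 36.2 and 36.3 FPKM in the control libraries and 38.0 and 38.3 FPKM in the IL-12 libraries, and Egfr made up 51.8% and 53.2% of it before and 59.5% and 60.0% after IL-12. The level of Egfr over that of Erbb2 within a library was 1.11 and 1.17 in the control group and 1.50 and 1.54 in the IL-12 treatment group. Erbb4, the remaining receptor of the family and a full neuregulin receptor, was not on the list of 10 genes. The receptor sum and shares leave it out, though at 0.843 FPKM in the control group and 0.465 FPKM with IL-12 it stood above Erbb3. It had 191 and 203 counts without IL-12 and 108 and 109 with it, or 10.1, 10.8, 5.46 and 6.03 CPM. It fell by 0.86 on the log2 scale (standard error 0.14, 95% interval -1.15 to -0.57), at adjusted p = 0.000101 (edgeR), and it passed in all 14 other settings.

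**Figure D2:**
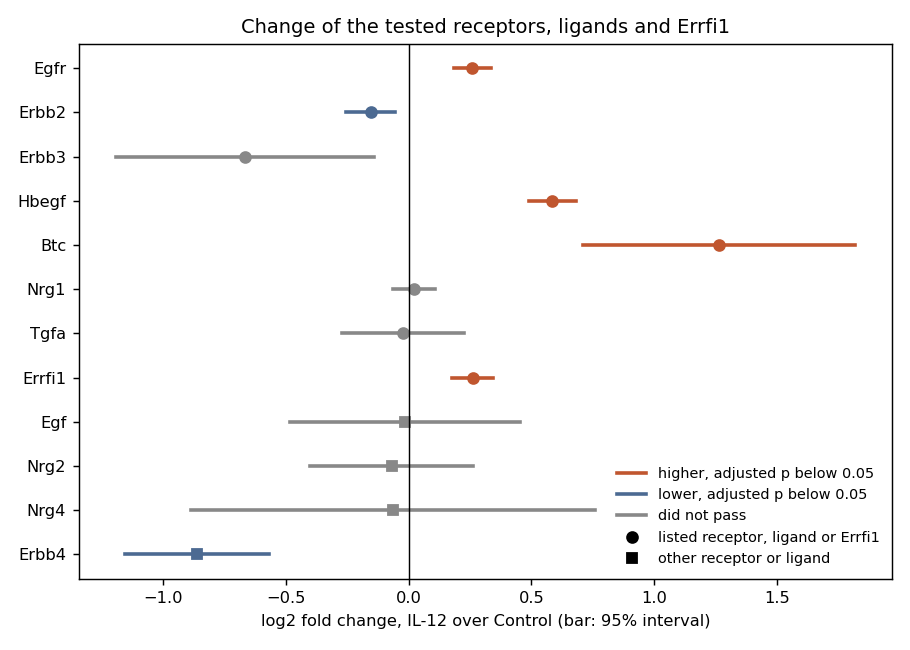
Log2 fold change of IL-12 over control for the 8 tested genes of the set (circles) and for the other receptor and ligands of the family that could be tested (squares). Bars are 95% intervals from edgeR's quasi-likelihood test, and grey marks genes that did not pass an adjusted p of 0.05. Btc had the widest interval above 0, from 0.71 to 1.82, and Erbb4 lay lowest.

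Hbegf encodes heparin-binding EGF-like growth factor, a ligand of EGFR and ERBB4 that is anchored in the membrane until it is shed. It lies on chromosome 18 from 36504929 to 36515805 (ENSMUSG00000024486). Control replicates 1 and 2 held 1575 and 1552 counts of it and IL-12 replicates 1 and 2 held 2445 and 2256. After scaling, these were 83.1, 82.2, 124 and 125 CPM. The 2 values of a group lay close together and far from those of the other group. Hbegf rose by 0.59 on the log2 scale (standard error 0.05, 95% interval 0.49 to 0.68), the smallest p-value among the 10 genes (adjusted p = 1.33e-08, edgeR). Of all genes tested, 8.66% changed by more. The log2 fold change stayed between 0.55 and 0.60 in 14 other settings and passed in each.

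Btc encodes betacellulin, a ligand of EGFR and ERBB4. It lies on chromosome 5 from 91357261 to 91402994 (ENSMUSG00000082361). It had 23 and 30 counts without IL-12 and 68 and 60 with it, or 1.21, 1.59, 3.44 and 3.32 CPM. The groups were well apart, though at a low level that 10.3% of the tested genes fell below. On the log2 scale Btc rose by 1.27 (standard error 0.26, 95% interval 0.71 to 1.82, adjusted p = 0.0011, edgeR), and 1.29% of all genes tested changed by more. Leaving out each library in turn moved it between 1.09 and 1.47. On the log2(FPKM + 1) scale, which understates the change of a gene this low, it was 0.42, and it passed there too.

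Nrg1 encodes neuregulin 1, a ligand of ERBB3 and ERBB4 with many isoforms, and lies on chromosome 8 from 31814551 to 32884029 (ENSMUSG00000062991). It had 3628 and 3660 counts without IL-12 and 3725 and 3675 with it, or 192, 194, 188 and 203 CPM. The IL-12 values lay on either side of the control values. The log2 fold change was 0.02 (standard error 0.04, adjusted p = 0.747, edgeR), and its 95% interval of -0.06 to 0.11 held no change above 1.08-fold. GENCODE M21 lists 18 transcripts of the gene, which a count per gene does not separate. The lincRNA Gm26578, on the opposite strand, overlaps 482 exonic bases of Nrg1 and had 511 counts over the 4 libraries against 14688.

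Tgfa, which encodes TGF-α, a ligand of EGFR alone, lies on chromosome 6 from 86195223 to 86275719 (ENSMUSG00000029999). It had 203 and 215 counts without IL-12 and 209 and 203 with it, or 10.7, 11.4, 10.6 and 11.2 CPM. These values overlapped, and the difference on the log2 scale was -0.02 (standard error 0.12, adjusted p = 0.917, edgeR). The 95% interval of -0.27 to 0.23 is wider than that of Nrg1 and reaches 1.17-fold upward.

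Areg and Ereg encode amphiregulin and epiregulin, ligands of EGFR. Areg (chromosome 5 from 91139599 to 91148432, ENSMUSG00000029378) had 1 and 1 counts without IL-12 and 1 and 5 with it. Only the last of these 4 values was above the floor of 3 counts. Ereg (chromosome 5 from 91074622 to 91093646, ENSMUSG00000029377) had 0 and 0 counts without IL-12 and 3 and 0 with it, none above the floor. Neither gene passed the filter on low counts, and a difference was not detectable at this depth. The genes Epgn, Ereg, Areg and Btc lie in a row within 375.5 kb of chromosome 5, and of these Btc alone had more than 5 counts in any library.

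Per length, the 6 ligands summed to 55.4 and 55.6 FPKM in the control libraries and to 72.8 and 74.9 FPKM in the IL-12 libraries. Hbegf made up 63.1% and 62.4% of the sum in the control group and 71.6% and 70.2% in the IL-12 treatment group. The share of Nrg1 went from 33.3% and 33.7% to 25.0% and 26.2%. Tgfa held 2.24% to 3.16% of the sum in every library and Btc 0.484% to 1.05%. Btc, which had the largest fold change of the 8 tested genes, was thus a small part of the summed level of these 6 ligands in both groups. The sum leaves out the other ligands of the family. Of those, Nrg2 was the highest, at 2.62 FPKM in the control group and 2.50 FPKM with IL-12, above Tgfa and Btc.

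**Figure D3:**
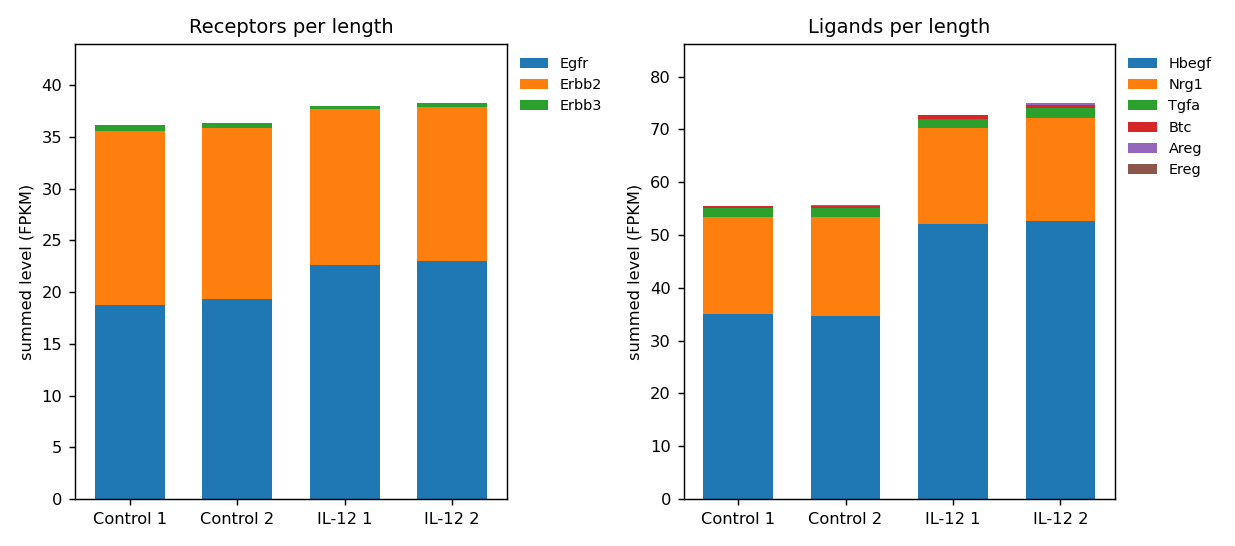
Summed level per length (FPKM, linear axes from 0) of the 3 receptors and the 6 ligands in each of the 4 libraries, with 1 colour per gene. The ligand sum was 55.4 and 55.6 FPKM in the control libraries and 72.8 and 74.9 FPKM in the IL-12 libraries, with Hbegf the largest share in each, while the receptor sum stayed between 36.2 and 38.3 FPKM.

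Errfi1, the feedback inhibitor, lies on chromosome 4 from 150853919 to 150868892 (ENSMUSG00000028967). Control replicates 1 and 2 held 3413 and 3556 counts of it and IL-12 replicates 1 and 2 held 4263 and 4090, or 180, 188, 215 and 226 CPM. The groups did not overlap. Errfi1 rose by 0.26 on the log2 scale (standard error 0.04, 95% interval 0.18 to 0.34, adjusted p = 4.9e-05, edgeR). The level of Errfi1 over that of its target Egfr, per length and within a library, was 2.68 and 2.73 in the control group and 2.66 and 2.75 in the IL-12 treatment group, so these ratios overlapped. Mien1 shares 9 exonic bases with Erbb2 and had 430 counts over the 4 libraries against 6255, and no gene shares exonic bases with Egfr, Hbegf, Btc or Errfi1.

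Other genes of the pathway were read from lists of 88 genes, of which 78 were tested. Of these, 15 were higher and 22 were lower at an adjusted p below 0.05, where 16.1% and 14.4% of all genes tested were, and their median log2 fold change was -0.02. With total counts in place of TMM scaling, 10 were higher and 26 lower. The shares of all genes given here and for the single lists below are also over genes of all levels. Among the other ligands, Egf had 85, 58, 83 and 59 counts in the libraries in the order given above, Nrg2 had 178, 127, 151 and 140, and Nrg4 had 27, 17, 17 and 25. All of these overlapped between the groups, with log2 fold changes of -0.01, -0.07 and -0.06 and standard errors of 0.22, 0.16 and 0.39. Nrg4 overlaps 368 exonic bases of Fbxo22 on the opposite strand, which had 3939 counts, so its value is uncertain. Epgn had between 2 and 5 counts and Nrg3 had none, so neither was tested.

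Of 12 genes of shedding and ligand maturation, 10 were tested, 4 rose and 2 fell (16.1% and 14.4% of all genes tested), with a median log2 fold change of 0.12. Adam12, a metalloprotease that can shed HB-EGF, stood apart from the rest. It had 143 and 142 counts without IL-12 and 804 and 679 with it, or 7.55, 7.52, 40.6 and 37.5 CPM. The log2 fold change of Adam12 was 2.37 (standard error 0.10, 95% interval 2.17 to 2.58, adjusted p = 2.04e-12, edgeR), which 0.121% of all genes tested exceeded in either direction. Timp3, an inhibitor of ADAM17, rose by 0.21 on the log2 scale, Cnih1, which helps export ligand precursors from the endoplasmic reticulum, by 0.21, and Adam9 by 0.12. Rhbdf2, which encodes an iRhom that helps ADAM17 to mature, fell by 0.28, and Adam17, the principal sheddase of several EGFR ligands, fell by 0.14. Rhbdf1, the gene of the other iRhom, was named after its value was seen. Its control level was 19.6 FPKM, against 9.07 FPKM for Rhbdf2. Rhbdf1 stood at 0.12 on the log2 scale (standard error 0.05, adjusted p = 0.0713, edgeR) and did not pass. The calls of Adam9 and Adam17 were lost in 6 and 8 of 14 other settings, and that of Cnih1 without IL-12 replicate 2 (adjusted p = 0.0648, edgeR). Adam17 shares 311 exonic bases with Iah1 on the opposite strand. Adam10 and Nrd1, a pair of further proteases named after their values were seen, did not pass. Adam10 stood at -0.02 on the log2 scale (standard error 0.04). Nrd1 stood at 0.11 (standard error 0.04, adjusted p = 0.0504, edgeR).

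Of 24 genes of receptor inhibition and turnover, 22 were tested, 2 rose and 6 fell (16.1% and 14.4% of all genes tested), with a median log2 fold change of -0.01. The share that rose was below that of all genes and the share that fell was above it, by a few genes each. Neither gap was tested. Lrig1, a membrane protein that promotes degradation of the receptors, rose by 0.31 on the log2 scale (standard error 0.05), and Socs5, which lowers EGFR, rose by 0.24 (standard error 0.05). Erbin, which binds ERBB2, fell by 0.33 (standard error 0.04). Ankrd13a and Epn1, ubiquitin-binding proteins of receptor endocytosis, fell by 0.21 and 0.20, and the ubiquitin ligase gene Cblb fell by 0.25. The call of Cblb was lost in 6 of 14 other settings, that of Epn1 without IL-12 replicate 1 (adjusted p = 0.0518, edgeR) and that of Socs5 without IL-12 replicate 2 (adjusted p = 0.0525, edgeR). Lrig1 shares 144 exonic bases with Slc25a26 on the opposite strand, which had 542 counts against 5454. Cbl itself, named after its value was seen, stood at -0.08 and did not pass. Hgs is listed under 2 identifiers with nearly the same coordinates and had 1 count in all, so its value is uncertain.

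Of 46 adaptors and signal relay genes, 42 were tested, 9 rose and 13 fell (16.1% and 14.4% of all genes tested), with a median log2 fold change of -0.05. Src, a kinase that acts with EGFR, rose by 0.33 on the log2 scale (standard error 0.04), and Eps8, a substrate of the receptor, rose by 0.44 (standard error 0.06). Vav2, an exchange factor, rose by 0.31, and the GTPase gene Nras rose by 0.20. Gab1, the docking protein that couples the receptor to PI3K, fell by 0.56 (standard error 0.06). Stat3 fell by 0.42 (standard error 0.04), Mapk3, the gene of ERK1, fell by 0.32, and Pik3r3, a regulatory subunit of PI3K, fell by 0.35. Pik3r3 shares 1289 exonic bases with Gm49337 on the same strand, which had 0 counts. Stat3 shares 72 exonic bases with Stat5a on the opposite strand, which had 2329 counts against 8689. Shc4, named here after its value was seen as the only gene of this list over 2-fold among those that passed, had a log2 fold change of 1.49 from 13, 16, 46 and 36 counts. It shares 527 exonic bases with Eid1 on the opposite strand, which had 3894 counts, so its value is uncertain.

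**Figure D4:**
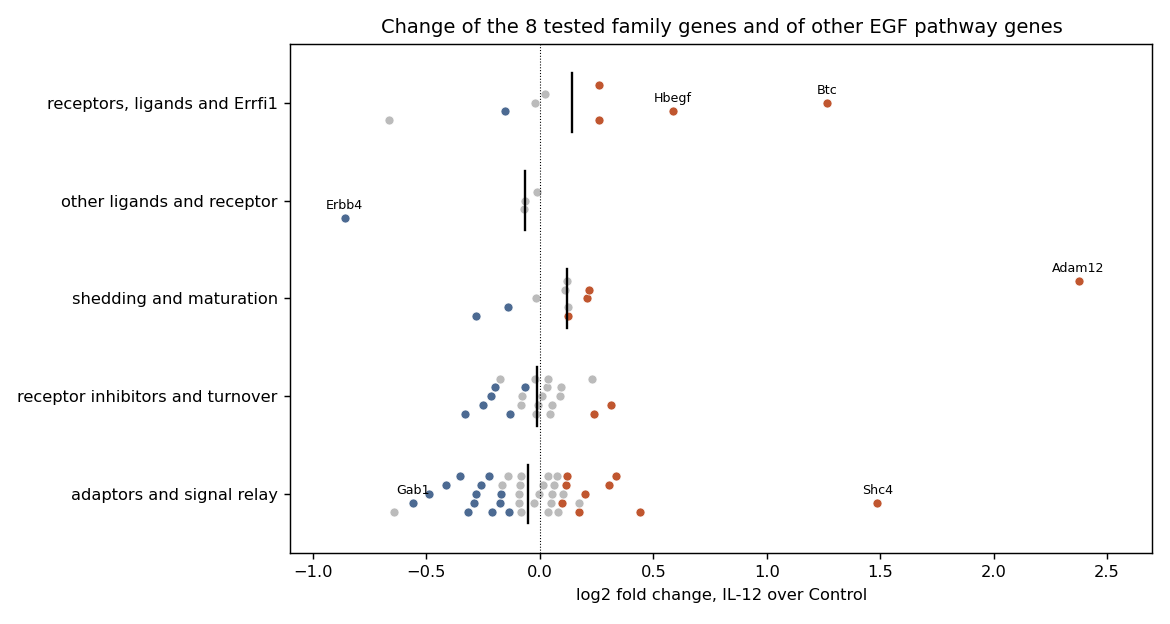
Log2 fold change of IL-12 over control for each tested gene of the set and of the other pathway lists, 1 point per gene, with vertical bars at the median of a list. Red and blue mark genes higher and lower at an adjusted p below 0.05, grey marks genes that did not pass, and called genes beyond 0.5 in either direction are named. Adam12, at 2.37, Shc4, at 1.49, and Btc, at 1.27, lay far to the right, and the medians lay between -0.07 and 0.14.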

How the data were processed

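RNA of 4 libraries of the mouse podocyte line MPC5 was sequenced by the authors. The authors deposited whole-number counts for each gene, not normalized, and FPKM values. Within a tolerance of 1%, the FPKM values checked were the count scaled to gene length and library total, times a factor fixed for the library (0.985, 0.989, 1.02 and 1.02). The submitters' processing notes name HISAT2, StringTie and the build mm9, with no versions, but the gene coordinates equal those of GENCODE M21 (GRCm38) for 98.3% of 54495 genes and for 9 of the 10 genes described. Strand use and the handling of reads shared between genes are not given in the sources used here.

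The tools were edgeR 4.0.16, DESeq2 1.42.0 and limma 3.58.1 under R 4.3.3, with matplotlib 3.10.9 under Python 3.11.15 for plots. A gene entered the test if it passed filterByExpr (at least 10 counts, 15 in total), and libraries were scaled by TMM (factors 1.02, 1.01, 0.985 and 0.987). The quasi-likelihood test of edgeR was used, and p-values were adjusted over 14095 genes by the Benjamini-Hochberg method, without a replicate block. CPM is the count scaled to library size after TMM, given per library or as mean ± SD. Standard errors are the log2 fold change over the square root of F, and intervals use the same degrees of freedom. The steps were tested on simulated data with changes larger than most of those reported here, so that test does not cover the smaller changes.

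The genes, the pathway lists and the tests were chosen with earlier results of these data known. All 10 genes, the other ligands and receptor, and up to 4 genes per direction and list with the smallest p among those that passed are named. Listed symbols not in the files were matched through RefSeq synonyms (1 gene, Nrd1). Motifs were searched in RefSeq promoter windows. Alternatives were other scalings, filters, tests and units, a stricter adjusted p, a replicate block and each library left out, where the lone library of a group is assumed to vary like the other group. Some of the podocyte markers are not reported here by name.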

Additional observations from a re-analysis of the deposited data

How the results depend on the processing

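The 4 higher genes (Hbegf, Btc, Egfr and Errfi1) kept their call under all 15 alternatives that gave counts, and Erbb2 kept its direction in all 14 refits. The 1 lower gene, Erbb2, was not kept throughout: 2 genes were called lower with upper-quartile scaling, total counts only and at least 10 counts in every library, where Erbb3 passed too, and 0 with the DESeq2 Wald test, no filter, log2(FPKM + 1), log2(FPKM + 0.1) and an adjusted p below 0.01. Without 1 library at a time it was 0 to 1. The cause was not tested.

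Of the other pathway genes, 15 were higher and 22 lower. The higher count was 9 with log2(FPKM + 1) and 9 to 15 without 1 library at a time, lowest without IL-12 replicate 2. The lower count was 13 with the DESeq2 Wald test, 14 with either FPKM scale, 14 at an adjusted p below 0.01 and 11 to 18 without 1 library at a time, lowest without IL-12 replicate 1. Total counts only gave 10 higher and 26 lower, and upper-quartile scaling 13 and 23. Of the 21 named other genes that passed, 15 passed in every alternative and 6 were lost in at least 1.

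Over all genes, 4297 were called, against 2705 with the DESeq2 Wald test and 2528 without IL-12 replicate 1. With the replicate block the counts were 4 higher, 1 lower, 15 and 22, with 4341 genes called in all; same-numbered libraries share only a number, with a correlation of deviations across genes of -0.030. Levels near 3 counts, as for Areg and Ereg, cannot show a difference. Without a filter their adjusted p was 0.617 and 0.55.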
